A study of Mus musculus with 54 samples.

Results

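The comparison is that of acceptor microglia after 60 min of co-culture with acceptor microglia after 15 min. Its members are all libraries whose title marks them as acceptors at 60 min (4) or at 15 min (4), 8 of the 54 libraries of the series, and the replicate number gives the experiment that joins a 60 min library to a 15 min library. Acceptors were primary microglia of neonatal C57BL/6 mice that had been given no alpha-synuclein. They were stained with CellTracer Violet for 15 min, placed with donor microglia, and separated again by flow sorting at the stated time. Donors were microglia of the same kind exposed for 14 h to 1 µM alpha-synuclein labelled with Atto-488, a protein that forms fibrils and inclusions in Parkinson disease and is taken up by microglia. The mixed cultures came from flasks holding cells of 2 brains each, grown for 7 to 10 days in medium with 10% fetal calf serum and 1% L929 supernatant, and the microglia were shaken off the astrocyte layer. The 15 min and 60 min acceptors therefore share their cell source, dye, sort and contact with loaded donors, and differ in the length of the co-culture. RNA was read at the 3′ ends of transcripts with single reads of 50 bp.

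Microglia are the resident phagocytes of the brain, and neighbouring microglia can exchange cell material through contacts and thin actin-based tubes. Immediate early genes, such as those of the FOS, EGR and NR4A families, are transcribed within minutes of a stimulus without new protein synthesis, and their transcripts are short-lived. Their products include transcription factors of the AP-1 group and feedback proteins such as the dual-specificity phosphatases, which switch off MAP kinases. A step from 15 to 60 min falls in the interval in which such transcripts are known to come and go in stimulated cells.

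The 8 libraries held between 7807389 and 13632804 counts, and the lowest, the 15 min library of experiment 2, was also the lowest of all 54. Counts above 0 were present for 13330 to 14236 genes. Rn45s, a ribosomal RNA precursor, took 3.33% to 20.5% of the counts at 15 min and 4.64% to 22.1% at 60 min, with the highest share at both times in experiment 4. The microglia label was checked on 15 markers. All passed the filter on low counts, and their summed level ran from 10541 to 20265 CPM (the counts of a gene scaled to a common library size, after TMM normalisation) at 15 min and from 10205 to 18976 CPM at 60 min. Csf1r, the receptor for the survival factor of microglia, lay at 1493 ± 289 CPM at 15 min and 1436 ± 317 CPM at 60 min (SD, n = 4), whereas the brain-specific markers Tmem119 (1.55 to 7.30 and 0.925 to 5.51 CPM) and P2ry12 (3.02 to 5.93 and 1.48 to 7.30 CPM) were low. Summed markers of other cell types overlapped between the times: astrocytes, with 9 of 10 markers past that filter, lay at 11.7 to 49.6 and 8.99 to 48.5 CPM, the oligodendrocyte lineage with 10 of 10 at 133 to 335 and 134 to 298 CPM, and fibroblasts and mural cells with 8 of 10 at 11.1 to 33.0 and 12.98 to 26.6 CPM. Neuronal markers, 6 of 10 past the filter, summed to 1.78 to 18.9 and 1.298 to 12.7 CPM, endothelial markers, 4 of 8, to 42.3 to 57.5 and 48.7 to 79.8 CPM, and neutrophil markers, 2 of 8, to at most 0.925 CPM. Most of the endothelial sum was Flt1, at 31.1 to 52.0 and 35.7 to 66.7 CPM, while Pecam1 and Cdh5 reached at most 0.819 CPM. Gja1, at most 1.03 CPM, was the 1 astrocyte marker with an unadjusted p under 0.05 (log2 difference -2.29, edgeR unadjusted p 0.041). Of the T and B cell markers, 6 of 8 are in the table and only Cd4 passed the filter on low counts, at 0.431 to 7.74 and 0.555 to 12.2 CPM. In bulk samples of this kind, fewer cells with a transcript and less of it per cell cannot be told apart.

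No gene passed the test between 60 and 15 min of co-culture. Of 13169 genes tested with edgeR's quasi-likelihood test, with the experiment as a block, 0 (0%) had a Benjamini-Hochberg adjusted p under 0.05, and the smallest adjusted p was 0.633. At an unadjusted p under 0.05 there were 390 genes (2.96% of those tested), 196 of them higher (1.49%) and 194 lower (1.47%) at 60 min. Without any difference a share of about 0.05 would fall under this threshold, so the 390 are no excess. The unadjusted shares of the other whole contrasts below are to be read in the same way. DESeq2's Wald test also gave 0 genes, with 393 at an unadjusted p under 0.05. The same direction in all 4 experiments was seen for 1530 genes (11.6%), 729 higher (5.54%) and 801 lower (6.08%), and the 4 values of one time lay wholly above or below those of the other for 105 genes (0.797%), 48 higher (0.364%) and 57 lower (0.433%). In the same fit, acceptors differed from untreated microglia in 296 genes (2.25%) at 15 min and in 527 (4%) at 60 min; both counts rest on the same untreated libraries, and their difference is not a test of 60 against 15 min.

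A missing call can mean a small difference or a wide interval, and the intervals separate the 2. The 95% interval of the fold change lay inside 2-fold in either direction for 9502 of 13167 genes with an interval (72.2%) and inside 1.5-fold for 7015 (53.3%). Among genes averaging at least 10 CPM, 7493 of 7715 (97.1%) were bounded to within 2-fold and 6508 (84.4%) to within 1.5-fold, and the median distance from the estimate to the end of its interval was 0.29 on the log2 scale. Within the experiments, over 7716 genes at this level, 11, 13, 39 and 74 genes were more than 2-fold higher at 60 min in experiments 1 to 4, and 6, 52, 7 and 20 more than 2-fold lower. Of these 7716 genes, 0 were past 2-fold in all 4 experiments in one direction. Nr4a2 was the only one of them higher by that much in at least 3, and 0 were lower by that much in at least 3. Genes under 10 CPM are not in these counts. Pask, among those, was more than 2-fold lower at 60 min in all 4 experiments. Of the squared deviations among the 8 libraries, summed over genes, the experiment held 72.7%, the time 6.80% and the rest 20.5%. The experiment has 3 degrees of freedom, the time 1 and the rest 3, so these shares are not directly comparable. The labels give passage 3 for experiment 1, passage 1 for experiment 2 and passage 2 for experiments 3 and 4, and experiment 4 has a separate run of facility numbers; each experiment holds both times, so every pair is a value within one of these runs. Nothing in the labels says that the experiments were separate cultures. The p-values, standard errors and intervals rest on a spread estimated over the samples of all 14 groups, not on these 4 pairs alone. They can therefore be narrower or wider than the pairs. Csrnp1 differed by 0.30, 0.05, 0.35 and 3.52 (log2) in experiments 1 to 4 with an SE of 0.37. Trem2 differed by -0.14, 0.16, 0.02 and -0.09 with an SE of 0.54.

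**Figure D1:**
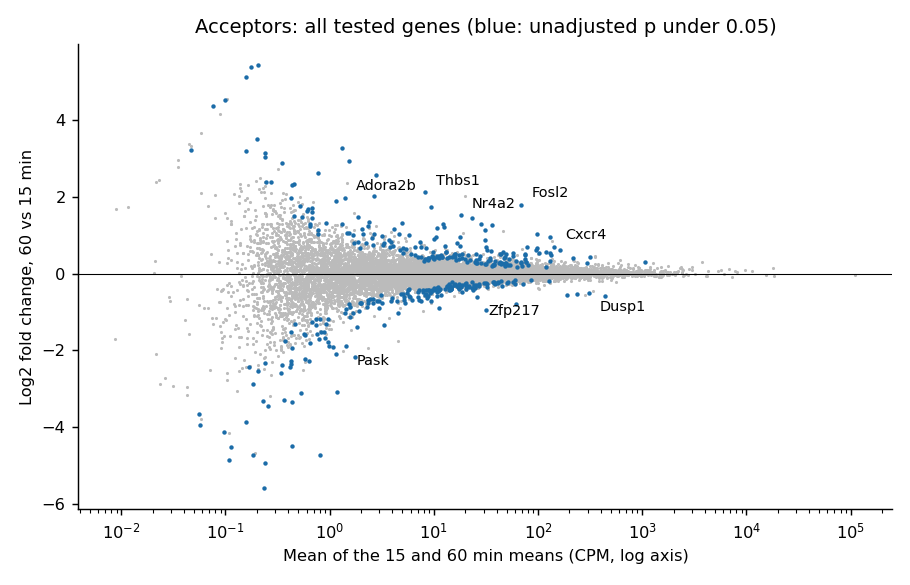
Log2 fold change of each tested gene in acceptors at 60 against 15 min (vertical) over the mean of both times in CPM (horizontal, log axis); each point is a gene, and blue marks the 390 genes with an unadjusted p under 0.05. None of them passed adjustment, and all fitted changes beyond 4 on the log2 scale belong to genes under 1 CPM.

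Of the genes with the smallest p among those that kept one direction in all 4 experiments, 19 are given as the nearest to a call, with no claim to one; 12 were higher and 7 lower at 60 min. They were chosen by this contrast, so their direction and their separation between times are a description. In 7 of them (Pask, Rbm4b, Adora2b, Inpp5a, Lias, Fbf1 and Ftsj1) the 15 and 60 min values did not overlap, against 105 genes (0.797%) in the whole table. Coordinates below are those of the mouse build mm10.

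Zfp217 (chr2:170108643-170148103), which encodes a zinc finger protein, had the smallest p. It stood at 26.8, 41.8, 19.6 and 39.4 CPM at 15 min in experiments 1 to 4 and at 22.6, 23.8, 16.7 and 17.2 CPM at 60 min. The 60 min value was the lower one in each experiment, although the ranges overlapped, and the fitted log2 difference was -0.61 (SE 0.14, edgeR adjusted p 0.633). Pask (chr1:93308770-93343482) encodes a serine/threonine kinase with a PAS sensor domain. Its levels were 2.91, 1.68, 1.40 and 3.02 CPM at 15 min and 0.637, 0.730, 0.447 and 0.555 CPM at 60 min. Every 60 min value lay under every 15 min value, with a log2 difference of -1.90 (SE 0.45, edgeR adjusted p 0.633). The gene overlaps Ppp1r7 on the opposite strand, and the use of strand in counting is not given in the sources used here.

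Inpp5a, which encodes an inositol polyphosphate 5-phosphatase, had 20.7, 13.4, 9.48 and 14.7 CPM at 15 min and 7.15, 8.35, 7.52 and 7.77 CPM at 60 min. The 60 min libraries were close to each other and all under the lowest 15 min library (log2 difference -0.90, SE 0.25, edgeR adjusted p 0.919). Cited2, a cofactor that binds CBP and p300, was measured at 237, 273, 171 and 203 CPM at 15 min and at 173, 222, 118 and 106 CPM at 60 min, a log2 difference of -0.55 (SE 0.16, edgeR adjusted p 0.961). It was the most abundant of the 7 lower genes, and its ranges overlapped. The other 3 lower genes were Lias (lipoic acid synthase, -0.34), Fbf1 (a protein of the base of cilia, -0.57) and Zfp846 (a zinc finger gene, -1.02).

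Among the 12 higher genes, Rbm4b (chr19:4756497-4767065), which encodes an RNA-binding splicing regulator, was at 3.10, 3.35, 2.95 and 2.93 CPM at 15 min and at 8.42, 6.57, 4.09 and 5.74 CPM at 60 min. The 15 min values were tightly grouped and all lay under the 60 min values (log2 difference 1.03, SE 0.25, edgeR adjusted p 0.633). It has a close paralogue, Rbm4, and overlaps 2 predicted genes on the opposite strand, so reads could be shared. Samd8 (chr14:21750531-21798726) encodes an enzyme of ceramide phosphoethanolamine synthesis. Its values were 47.4, 34.3, 65.6 and 92.9 CPM at 15 min and 59.7, 46.8, 83.3 and 167 CPM at 60 min. The order of the experiments was the same at both times and the ranges overlapped (log2 difference 0.51, SE 0.12, edgeR adjusted p 0.633).

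Thbs1 (chr2:118111876-118127133) encodes thrombospondin-1, a secreted matrix protein that binds CD36 and CD47 and activates latent TGF-beta. It had 1.60, 0.645, 1.19 and 8.96 CPM at 15 min and 3.33, 3.57, 9.31 and 36.9 CPM at 60 min, the largest fitted difference of the 19 genes (log2 2.12, SE 0.56, 95% interval 0.98 to 3.25, edgeR adjusted p 0.919). Experiment 4 was the highest at both times, and its 15 min level was above the 60 min level of experiments 1 and 2. Left out, it moved the fitted difference only to 2.13. Adora2b, the adenosine A2B receptor, which signals through Gs to cyclic AMP, had 0.376, 0.645, 0.983 and 0.172 CPM at 15 min and 1.20, 1.22, 4.84 and 1.76 CPM at 60 min. These levels rest on 2 to 14 counts per library at 15 min and 15 to 65 counts at 60 min (log2 difference 1.98, SE 0.55, edgeR adjusted p 0.919). Adora2a, its paralogue, was at 0 CPM in all 15 min libraries and averaged 0.199 CPM at 60 min.

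Irs2, the insulin receptor substrate of the macrophage lineage and a FOXO target, stood at 9.58, 10.3, 16.5 and 31.8 CPM at 15 min and at 16.1, 12.6, 26.7 and 122 CPM at 60 min. Experiment 4 contributed most: the log2 difference of 1.13 (SE 0.33, edgeR adjusted p 0.961) was 0.59 without it. Fem1c, a substrate receptor of a ubiquitin ligase, was also highest in experiment 4 at 60 min, with 7.09 ± 1.87 CPM at 15 min, 14.0 ± 7.55 CPM at 60 min (SD, n = 4) and a log2 difference of 0.95 that was 0.61 without experiment 4. Wee1, the kinase that holds CDK1 inactive, averaged 5.03 ± 1.03 CPM at 15 min and 8.24 ± 1.64 CPM at 60 min (log2 difference 0.70, SE 0.20). The smaller differences were those of Ftsj1 (a tRNA methyltransferase, 0.69), 1700017B05Rik (0.45), Cdk5rap3 (a component of protein UFMylation, 0.41) and Lhfpl2 (a tetraspan membrane protein, 0.40). Lhfpl2 was the most abundant of the 12, at 163, 144, 206 and 230.8 CPM at 15 min and 231.5, 201, 232.3 and 314 CPM at 60 min.

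**Figure D2:**
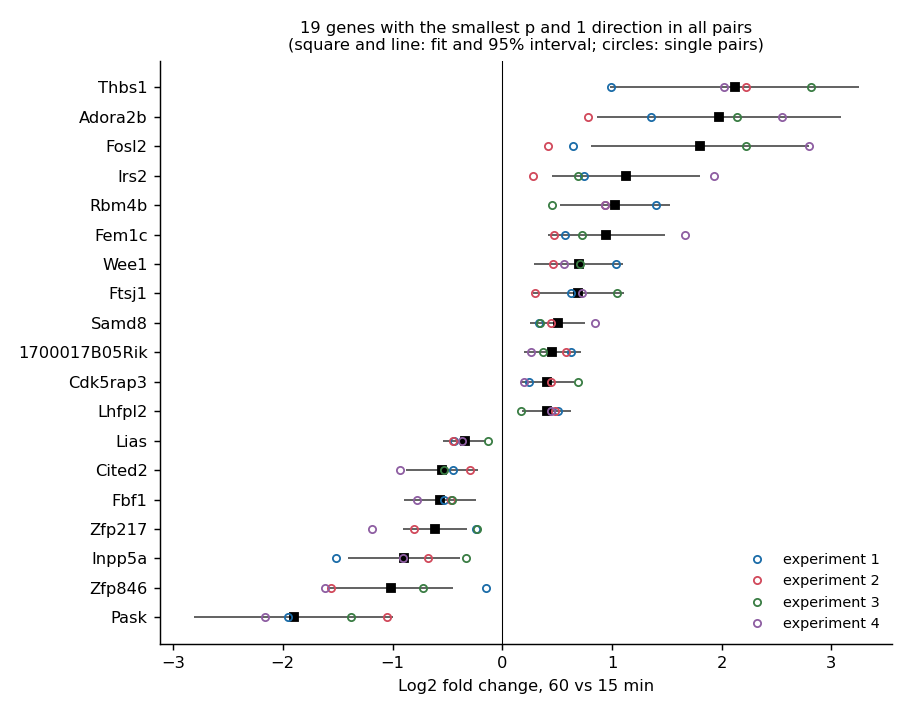
Log2 fold change at 60 against 15 min (horizontal) of 19 genes with the smallest p and one direction in all experiments (vertical); black squares and lines give the fit and its 95% interval, and coloured circles the single experiments. The intervals are unadjusted, and no gene had an adjusted p under 0.633.

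Immediate early transcription factors gave no call. Of 25 tested, 0 passed adjustment; 7 had an unadjusted p under 0.05 and a higher level at 60 min, against 1.49% of all genes, and 0 had one and a lower level, against 1.47%. Their median log2 difference was 0.25, beside -0.00078 over all genes, with 19 of 25 above 0, against 6562 of 13169 over all genes. By experiment the median was 0.09, -0.01, 0.14 and 0.75, so that the list stood apart in experiment 4. The count of 7 was 3 without experiment 3 and 3 without experiment 4. Rn45s was also highest in experiment 4, at 20.5% of the counts at 15 min and 22.1% at 60 min. Its share differed most between times in experiment 2, at 13.1% and 4.64%. The part of Rn45s in these values was not tested. With Rn45s left out before scaling, the table of all genes again gave 0 calls.

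Fosl2 (chr5:32135801-32157842) encodes Fra-2, an AP-1 subunit that is induced later than FOS. It was at 24.7, 19.1, 23.7 and 37.8 CPM at 15 min and at 38.8, 25.5, 111 and 263 CPM at 60 min. The 60 min library was the higher one in each experiment, by a wide margin in experiments 3 and 4 and a narrow one in experiments 1 and 2. The log2 difference was 1.80 (SE 0.49, 95% interval 0.80 to 2.79, edgeR adjusted p 0.919) and 1.18 without experiment 4. Csrnp1 (chr9:119971163-119984658) encodes a nuclear protein induced by AXIN1. Its values were 5.16, 8.38, 8.63 and 3.97 CPM at 15 min and 6.37, 8.68, 11.0 and 47.1 CPM at 60 min. Its log2 difference of 1.21 (SE 0.37, edgeR adjusted p 1) rested on experiment 4 and was 0.24 without it. The gene lies within the annotated span of Cx3cr1 on the same strand, and Cx3cr1 itself stood at 327 ± 241.3 CPM at 15 min and 310 ± 243.2 CPM at 60 min (SD, n = 4).

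The NR4A nuclear receptors are immediate early factors that need no ligand and whose promoters are known targets of cyclic AMP and CREB. Nr4a2 (chr2:57106830-57124003) was at 3.19, 0.387, 3.09 and 24.7 CPM at 15 min and at 3.40, 0.973, 19.6 and 90.1 CPM at 60 min. It was higher at 60 min in each experiment, by little in experiment 1, and spanned over an order of magnitude between experiments at either time (log2 difference 1.53, SE 0.57, edgeR adjusted p 1). Nr4a3 (chr4:48045153-48086447) had 0.282, 0, 0.351 and 0.345 CPM at 15 min, from 0 to 5 counts, and 0.283, 0.649, 2.75 and 7.49 CPM at 60 min, from 4 to 81 counts (log2 difference 2.93, SE 0.95, edgeR adjusted p 1). It was nearly the same at both times in experiment 1 and higher at 60 min in the other experiments, from few counts in experiment 2. Nr4a1 was at 7.98, 3.61, 15.9 and 18.5 CPM at 15 min and at 6.37, 2.19, 43.4 and 53.7 CPM at 60 min, lower at 60 min in experiments 1 and 2 and higher in experiments 3 and 4 (log2 difference 1.06, SE 0.73, and 0.64 without experiment 4). All 3 paralogues thus showed their largest 60 min values in experiments 3 and 4.

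Nr4a2 and Nr4a3 were both higher at 60 min in experiments 2 to 4, with little difference in experiment 1. Their promoters are shown for this reason and because short CREB sites are a known element of this family. They are RefSeq sequence of GRCm38.p6, upstream of the start of the gene and in its orientation, with each TGACG and its reverse complement CGTCA in capitals; for Nr4a2 this is chr2:57124004-57124253 on the minus strand, 250 bases, and for Nr4a3 chr4:48045055-48045152 on the plus strand, 98 bases.
Nr4a2: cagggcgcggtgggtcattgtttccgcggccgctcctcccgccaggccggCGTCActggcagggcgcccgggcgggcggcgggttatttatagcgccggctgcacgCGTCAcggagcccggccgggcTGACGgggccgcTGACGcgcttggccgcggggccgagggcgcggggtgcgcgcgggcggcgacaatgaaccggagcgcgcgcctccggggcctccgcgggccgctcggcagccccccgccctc
Nr4a3: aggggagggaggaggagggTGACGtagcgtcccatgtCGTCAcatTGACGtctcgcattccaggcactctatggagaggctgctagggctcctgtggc
The Nr4a2 window holds 4 matches, 2 on each strand, and the Nr4a3 window 3, of which 2 are forward. At least 1 match is present in 5836 of 32851 promoter windows of 250 bases (17.8%), and 3 or more in 0.688% of them. The Nr4a3 window has only 98 bases, so these shares are not on its scale. A match is a stretch of letters and no evidence of binding in these cells.

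Other immediate early genes did not share one direction. Fos (chr12:85473890-85477273), the founding AP-1 subunit, was at 369, 289, 274 and 423 CPM at 15 min and 189, 177, 245.96 and 294 CPM at 60 min, the lower value at 60 min in each experiment (log2 difference -0.55, SE 0.35, edgeR adjusted p 1). Egr2 was also lower at 60 min in each experiment, at 18.5 ± 5.29 against 12.7 ± 4.34 CPM (SD, n = 4; log2 difference -0.58). Egr1 was at 8.83, 14.1, 26.5 and 5.17 CPM at 15 min and 10.3, 15.9, 27.1 and 13.9 CPM at 60 min. Fosb and Maff, AP-1 family members that were among the 7, were higher at 60 min in 2 and 3 experiments, with log2 differences of 1.20 (SE 0.53) and 0.82 (SE 0.38). Without experiment 4 these were 0.34 for Fosb and 0.47 for Maff, and Maff was at 1.28 without experiment 2. Junb, a JUN family subunit, was split likewise, at 237.6, 198, 323 and 400 CPM at 15 min and 213, 189, 397 and 832 CPM at 60 min. Myc was at 3.77 ± 1.69 and 2.68 ± 0.756 CPM (SD, n = 4). Klf10, a zinc finger factor induced by TGF-beta and in 2 lists, averaged 21.3 ± 3.66 CPM at 15 min and 30.0 ± 8.35 CPM at 60 min and was lower at 60 min in experiment 2 only. Klf4 was at 13.1 ± 3.73 and 22.4 ± 10.4 CPM. The Kruppel-like list as a whole had 10 genes tested, 2 with an unadjusted p under 0.05 (Klf4 and Klf10), and a median log2 difference of -0.00.

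**Figure D3:**
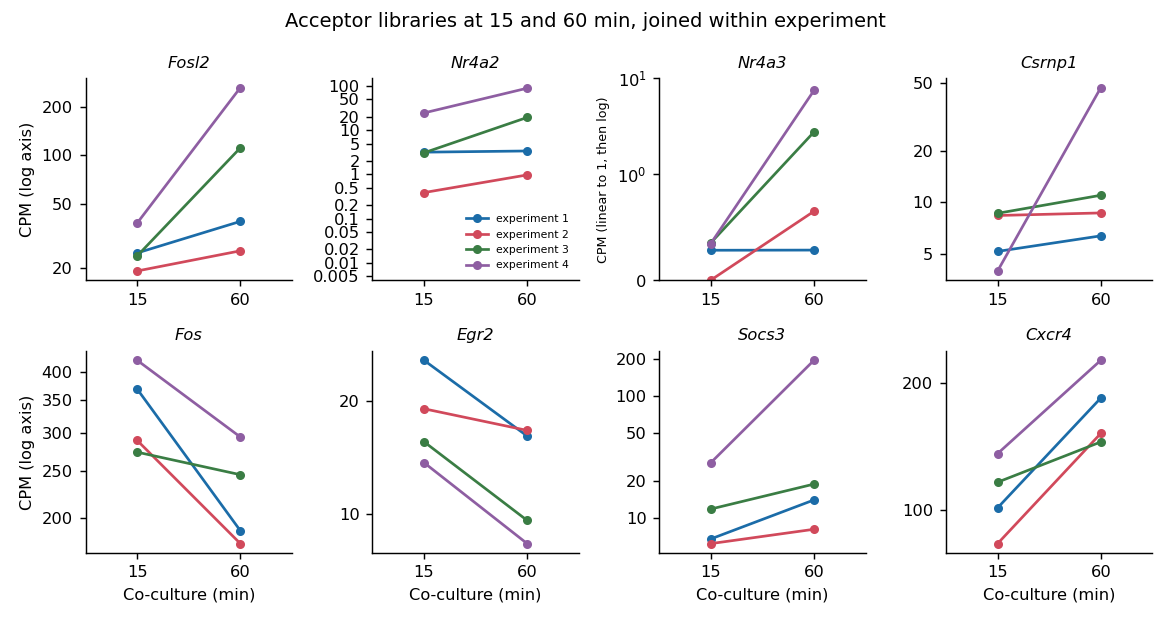
Levels of 8 genes in CPM (vertical; log axes, for Nr4a3 linear up to 1 and then log) at 15 and 60 min of co-culture (horizontal); each line joins the 2 acceptor libraries of an experiment. Fosl2, Nr4a2, Nr4a3 and Socs3 end highest in experiment 4, Fos and Egr2 are lower at 60 min in every experiment, and the 4 values of Cxcr4 at 60 min, 145 to 227 CPM, all lie above the 15 min values, 82.9 to 136 CPM.

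Feedback inhibitors went both ways. Dusp1 (chr17:26505590-26562128), the phosphatase that inactivates p38, JNK and ERK, was at 319, 281, 291 and 556 CPM at 15 min and 210, 215, 211 and 381 CPM at 60 min. Each experiment was lower at 60 min, but the 60 min library of experiment 4 exceeded 3 of the 15 min libraries (log2 difference -0.50, SE 0.24, edgeR adjusted p 1). Dusp7, another MAP kinase phosphatase, was at 50.7 ± 9.55 CPM at 15 min and 40.4 ± 6.57 CPM at 60 min (SD, n = 4), lower in all 4 experiments, and Dusp16 at a mean of 15.2 and 22.3 CPM, higher in 3. Of the 15 phosphatases and ERK feedback genes, 0 passed adjustment, 1 was higher and 2 lower at an unadjusted p under 0.05, and 8 were bounded to within 2-fold. Socs3 (chr11:117966079-117970047), the inhibitor of JAK and STAT3 signalling, was at 6.76, 6.19, 11.9 and 28.4 CPM at 15 min and 14.1, 8.11, 19.0 and 195 CPM at 60 min. It was higher at 60 min in all 4 experiments, and the log2 difference of 1.25 (SE 0.46, edgeR adjusted p 1) was 0.72 without experiment 4. Cish, a relative of Socs3, averaged 0.159 CPM at 15 min and 2.49 CPM at 60 min and was lower at 60 min in experiment 1. Among 23 regulators of mRNA decay, Zfp36l1, which speeds the decay of AU-rich mRNAs, had 284 ± 128 CPM at 15 min and 191 ± 62.8 CPM at 60 min and was lower in all 4 experiments, while Zc3h12a, an RNase for cytokine mRNAs, averaged 11.7 and 16.2 CPM.

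Cxcr4 (chr1:128588199-128592293) was the only 1 of 20 chemokine and adhesion receptors with an unadjusted p under 0.05. It encodes the receptor for CXCL12, which guides cell migration. Its values were 101, 82.9, 116 and 136 CPM at 15 min and 184, 152, 145 and 227 CPM at 60 min, 109 ± 22.5 against 177 ± 37.4 CPM (SD, n = 4). The times did not overlap, a separation seen upward in 48 genes (0.364%) of the table. The log2 difference was 0.70 (SE 0.22, 95% interval 0.27 to 1.14, edgeR adjusted p 1) and 0.65 to 0.82 with any 1 experiment left out.

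Secreted inflammatory signals gave no common direction. Of 19 CC and CXC chemokines, 0 passed adjustment, and Ccl3, a chemoattractant for monocytes, was the 1 with an unadjusted p under 0.05. It was at 722, 579, 446 and 316 CPM at 15 min and 574, 536, 177 and 191 CPM at 60 min, lower in each experiment with overlapping ranges (log2 difference -0.60, SE 0.28, edgeR adjusted p 1, and -0.36 without experiment 3). Its neighbour Ccl4 was lower at 60 min in 3 experiments, at 370 ± 95.3 against 302 ± 164 CPM (SD, n = 4). Il1b was at 31.5, 72.4, 75.4 and 259.3 CPM at 15 min and 51.0, 78.4, 231.4 and 298 CPM at 60 min, higher in each experiment with a log2 difference of 0.86 (SE 0.56) that was 0.40 without experiment 3. Tnf had 30.4 ± 4.83 and 37.9 ± 13.7 CPM. The 19 cytokines and feedback genes had a median log2 difference of 0.16, with Socs3 and Cish as the 2 at an unadjusted p under 0.05, and only 5 were bounded to within 2-fold. The 16 NF-kB subunits and inhibitors, by contrast in width, had 14 bounded to within 2-fold and a median of 0.06. Among these, Tnfaip3, the deubiquitinase A20, was at 14.9 ± 3.80 and 21.4 ± 8.14 CPM, and Bcl3 at 26.8 ± 2.86 and 38.6 ± 18.5 CPM, both higher at 60 min in all 4 experiments without a p under 0.05.

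Several lists, autophagy and lysosome genes included, were closely bounded. All 37 autophagy genes tested had an interval inside 2-fold, as did 40 of 41 lysosome genes, 42 of 43 respiratory chain genes, 25 of 26 NRF2 and oxidative stress genes, 22 of 23 genes of cholesterol synthesis, 22 of 23 mRNA decay regulators and 35 of 40 genes of actin, filopodia and tunnelling nanotubes. Over all tested genes the share was 72.2%, and most of these list members are abundant. Among all genes averaging at least 10 CPM the share was 97.1%, so narrow intervals were not particular to these lists. Their medians were -0.00 for autophagy, 0.04 for lysosomes, 0.02 for the respiratory chain, -0.02 for oxidative stress, 0.08 for cholesterol synthesis and -0.02 for actin and nanotubes. Of the autophagy, lysosome, respiratory chain and actin lists, 0 members had an unadjusted p under 0.05. The smallest p belonged to Wasl, which starts branched actin, at 24.2 ± 3.36 CPM at 15 min and 20.4 ± 3.16 CPM at 60 min, then to Rubcn, an inhibitor of autophagosome maturation, at 27.4 ± 4.24 and 23.2 ± 0.979 CPM (SD, n = 4). They were followed by the lysosomal protease gene Ctsl at 669 ± 91.2 and 792 ± 150 CPM and by Atg9a, the membrane-shuttling protein of early autophagosomes, at 19.6 ± 3.98 and 24.0 ± 4.21 CPM (SD, n = 4). The cortactin gene Cttn was at 4.01 ± 1.39 and 2.84 ± 1.56 CPM, lower at 60 min in each experiment.

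Of the metabolic and stress lists, a few single members had an unadjusted p under 0.05. Nfe2l2, the NRF2 factor of the antioxidant response, was at 245.2, 242.6, 228.5 and 342 CPM at 15 min and 317, 236.3, 366 and 543 CPM at 60 min, higher in all but experiment 2 (log2 difference 0.44, SE 0.18, edgeR adjusted p 1). Its target Gsr was at 35.1 ± 10.8 and 41.0 ± 12.4 CPM. Pfkfb3, which drives glycolysis through fructose 2,6-bisphosphate, was at 34.4 ± 5.92 and 51.0 ± 22.8 CPM and higher in all 4 experiments. Vegfa and Adm, 2 hypoxia-inducible genes, averaged 8.75 and 37.5 CPM and 1.34 and 0.515 CPM, and neither kept one direction. Lss, a cholesterol synthesis enzyme, was at 15.3, 11.1, 16.2 and 8.45 CPM at 15 min and 11.0, 9.57, 12.4 and 5.46 CPM at 60 min, the 1 of 23 in that pathway (log2 difference -0.42, SE 0.20). Skil, a repressor and target of TGF-beta signalling, was at 63.2 ± 8.32 and 88.3 ± 18.5 CPM and higher in all 4 experiments. Bhlhe40, a clock-linked repressor, was at 6.76, 3.61, 7.72 and 9.22 CPM at 15 min and 8.92, 6.81, 9.23 and 28.1 CPM at 60 min (log2 difference 0.90, SE 0.31, edgeR adjusted p 1, and 0.49 without experiment 4). The clock list had the highest median of all, 0.25 over 15 genes, with Bhlhe40 and Nfil3 as the 2 at an unadjusted p under 0.05. The 32 ER stress genes (median 0.07), 28 heat shock genes (0.01), 17 genes of the LXR pathway (0.06) and 15 glucocorticoid-responsive genes (0.02) had 0 members higher at an unadjusted p under 0.05, and Dusp1 was the 1 lower.

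Microglial state genes gave no calls. Of 19 homeostatic genes tested, 0 had an unadjusted p under 0.05 (median -0.04), and Sall1, a transcription factor of microglial identity, was at 6.50 ± 2.29 and 4.64 ± 1.56 CPM (SD, n = 4). Of 22 disease-associated microglia genes, likewise 0 (median 0.10), with 19 bounded to within 2-fold. Fabp5, a fatty acid carrier in that group, stood at 852 ± 277 CPM at 15 min and 963 ± 306 CPM at 60 min. The 33 interferon-stimulated genes had 28 members above 0, against 6562 of 13169 over all genes, and 0 members with an unadjusted p under 0.05. Their median was 0.12, which by experiment was 0.38, 0.05, 0.05 and -0.08. Zbp1, a sensor of Z-form nucleic acids in that list, was at 26.5, 84.2, 83.0 and 11.1 CPM at 15 min and 40.7, 94.9, 90.2 and 11.4 CPM at 60 min, a spread between experiments far wider than that between times. The 44 cell cycle genes had a median of -0.05 with Wee1 as the 1 member under 0.05. Over all 27 lists with tested members the medians ran from -0.09 to 0.25. Of the 635 genes in them 0 passed adjustment, and 490 were bounded to within 2-fold. At an unadjusted p under 0.05, 23 were higher and 7 lower, against 196 (1.49%) and 194 (1.47%) of all 13169 tested genes. The lists were chosen with earlier results of these data known, so these counts are a description.

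**Figure D4:**
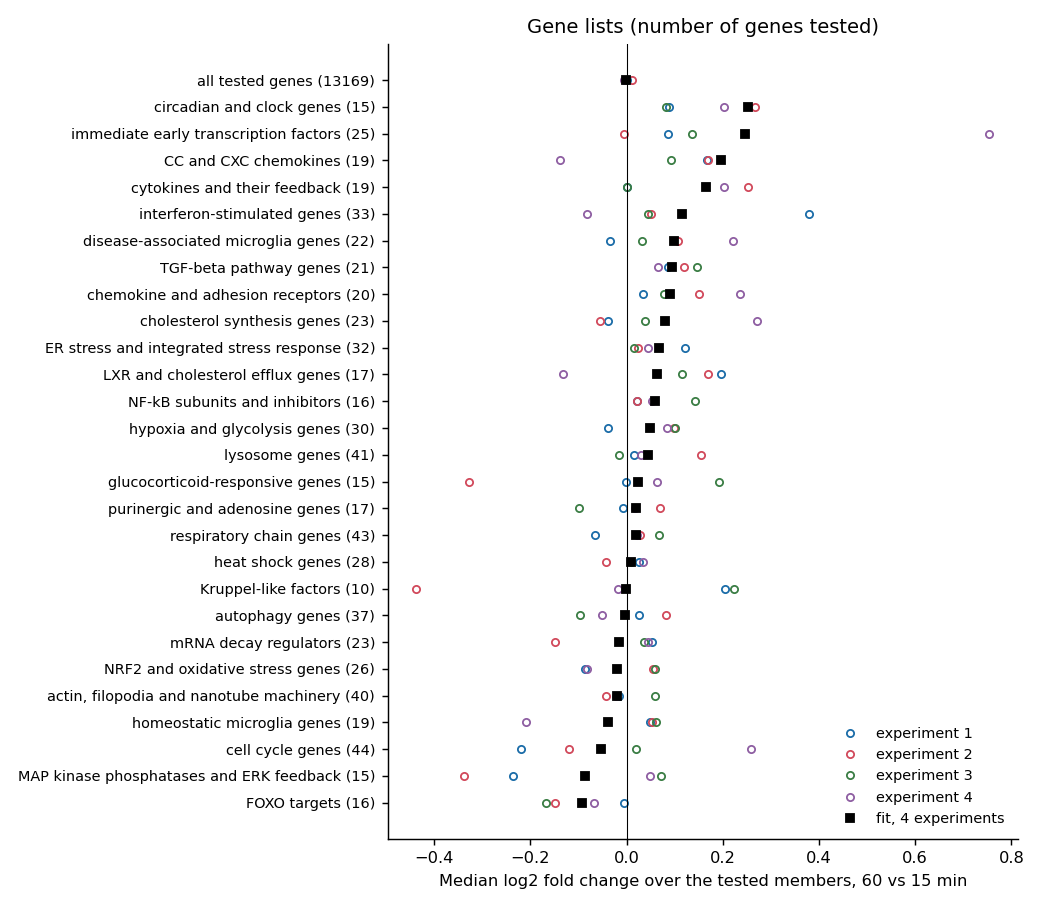
Median log2 fold change at 60 against 15 min (horizontal) over the tested members of each gene list (vertical, number of genes in brackets); black squares are medians of the fit and circles those of single experiments. All list medians lie between -0.09 and 0.25, and the immediate early list in experiment 4, at 0.75, is the farthest point.

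The 30 min acceptors (4 libraries) divide the interval. In the same fit 0 genes (0%) passed adjustment from 15 to 30 min, with 417 (3.17%) at an unadjusted p under 0.05, and 0 (0%) from 30 to 60 min, with 525 (3.99%); the smallest adjusted p were 1 and 0.912. The 2 steps share the 30 min libraries. The genes below were chosen with the 15 and 60 min values known, so placing them in a step is a description. For Thbs1 nearly all of the fitted difference lay in the second step. It was 0.18 (SE 0.61) from 15 to 30 min and 1.94 (SE 0.53) from 30 to 60 min on the log2 scale. Samd8 was alike at 0.03 (SE 0.12) and 0.47 (SE 0.12). For Rbm4b the fitted difference lay in the first step, at 1.05 (SE 0.25) and -0.02 (SE 0.24). Fosl2 (0.94 and 0.86, SE 0.48 and 0.47), Nr4a2 (0.83 and 0.70, SE 0.57 and 0.53) and Cxcr4 (0.41 and 0.30, SE 0.22 and 0.21) had similar fitted values in both steps. For Dusp1 (0.16 and -0.66, SE 0.24 and 0.24), Fos (-0.09 and -0.46, SE 0.34 and 0.35) and Ccl3 (0.06 and -0.66, SE 0.28 and 0.28) the lower fitted value was that of the second step. For Fos, Fosl2 and Nr4a2 the SEs are too wide to say which step holds the difference.

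Over all acceptor times the levels at 60 min were the highest for several of these genes. Cxcr4 averaged 79.5 ± 19.2 CPM at 0 min (SD, n = 3), 109 ± 22.5 at 15 min, 146 ± 36.5 at 30 min, 177 ± 37.4 at 60 min and 102 ± 24.7 at 150 min (n = 4 each) and 66.4 ± 5.61 at 300 min (n = 3), beside 70.6 ± 18.8 CPM in untreated microglia. Neighbouring times overlapped in their single values up to 60 min, and the 150 min values, 78.6 to 130 CPM, lay under all 60 min values. Fosl2 averaged 24.8, 26.3, 54.3, 110, 81.9 and 38.9 CPM from 0 to 300 min, and Nr4a2 1.56, 7.85, 16.5, 28.5, 10.0 and 3.84 CPM. The SDs at 60 min, 109 and 41.9 CPM, were about as large as the means or larger, so the order of neighbouring times is not resolved. Dusp1 was highest at 30 min, at 410 ± 214 CPM, after 172 ± 24.1 CPM at 0 min and 362 ± 130 CPM at 15 min, and stood at 161 ± 51.4 CPM at 150 min.

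**Figure D5:**
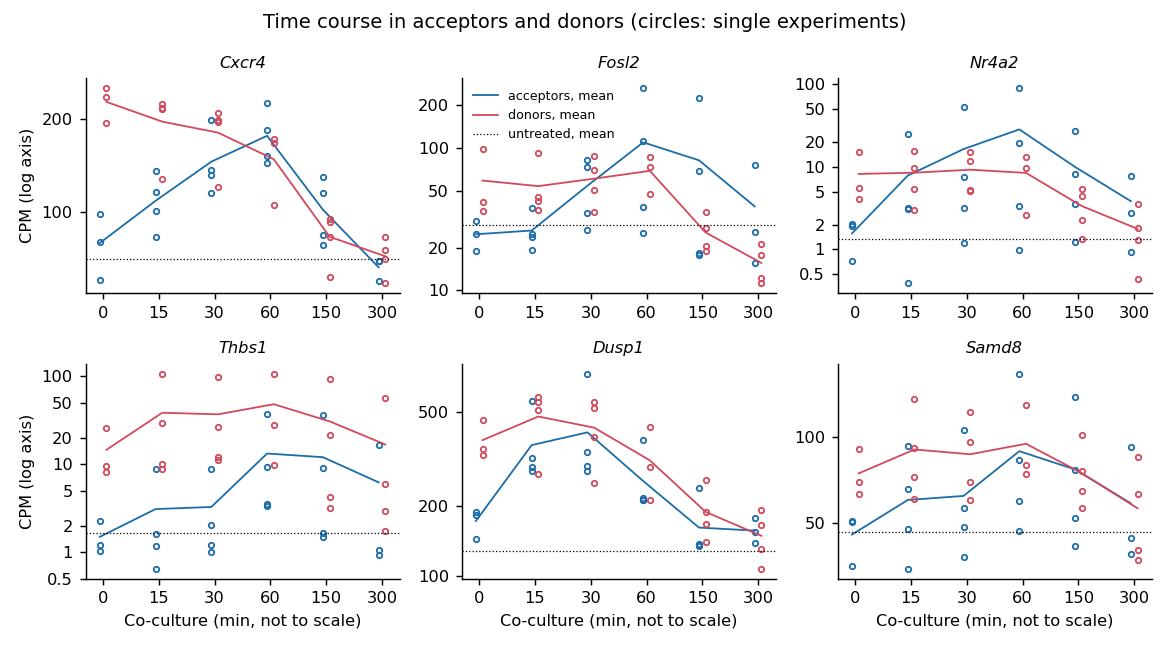
Level of 6 genes in CPM (vertical, log axes) over co-culture time (horizontal, not to scale) in acceptors (blue) and donors (red); circles are single experiments, lines join the means, and the dotted line is the mean of untreated microglia. In acceptors Cxcr4 has its highest mean at 60 min, 177 CPM, while its donor means run from 227.99 CPM at 0 min to 72.0 CPM at 300 min.

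Donor cells sorted from the same dishes allow the difference of the 2 changes to be tested. Donors had 4 libraries at 15 min and 3 at 60 min, as none of the 54 libraries is a 60 min donor library of experiment 2. Between 60 and 15 min 0 genes (0%) passed adjustment in donors, with 396 (3.01%) at an unadjusted p under 0.05. The interaction, acceptors minus donors, gave 0 genes (0%), with 387 (2.94%) at an unadjusted p under 0.05 and a smallest adjusted p of 1. Cxcr4 had a log2 difference of 0.70 in acceptors and -0.40 in donors, with an interaction of 1.11 (SE 0.32, edgeR adjusted p 1); its donor means were 197 ± 45.8 CPM at 15 min (SD, n = 4) and 149 ± 37.1 CPM at 60 min (SD, n = 3). Socs3 had 1.25 and -0.54 (SE in donors 0.45), and Wee1 0.70 and -0.24 (SE in donors 0.20). Irs2 had 1.13 and -0.30 (SE in donors 0.36), and Pask -1.90 and -0.01 (SE in donors 0.49). Cxcr4 and these genes were named for their change in acceptors. A smaller change in donors was therefore likely in advance and is a description only. Dusp1 had -0.50 and -0.66, and Fos -0.55 and -0.88. Myc, at -0.40 in acceptors, was at 1.44 in donors. The median of the immediate early list was -0.12 in donors. Adgre5, an adhesion receptor chosen after its high level in donors was seen, was at 5.19 ± 1.39 CPM in acceptors at 15 min and 5.73 ± 1.95 CPM at 60 min (SD, n = 4), beside 89.3 ± 7.51 and 90.4 ± 4.40 CPM in donors and 3.04 ± 0.621 CPM in untreated microglia; the part of donor RNA in the acceptor values was not tested. Also chosen after their values were seen were the Fos, Fosb, Egr1, Egr2, Junb, Maff, Myc, Nr4a1, Il1b, Tnf and Ccl4 values above, and Sik1, a cyclic AMP-induced kinase, at 6.20, 5.80, 9.69 and 5.26 CPM at 15 min and 4.88, 9.65, 20.5 and 36.8 CPM at 60 min, Nfil3, a clock-linked repressor, at 13.8 ± 3.09 and 43.4 ± 49.2 CPM, and Pde4b, a cyclic AMP phosphodiesterase, at 58.0 ± 10.2 and 138 ± 99.3 CPM. Each of these 3 was lower at 60 min in at least 1 experiment.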

How the data were processed

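Raw counts per gene for all 54 libraries were deposited by the authors as 1 table of 16632 genes, none with a total under 10. Per the submitters' processing notes, STAR, Partek and DESeq2 were used with the mouse build mm10; their versions, the counting program, the annotation and the use of strand are not given in the sources used here. The authors' normalised table was not used. No mitochondrially encoded gene is listed.

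Same-numbered untreated libraries were summed, which left 52 samples in 14 groups. Genes were kept by filterByExpr with a minimum count of 10, 13169 in all, scaled by TMM and fitted in edgeR 4.0.16 (R 4.3.3) by quasi-likelihood over all groups, with the experiment as a block; p-values were adjusted over all tested genes by Benjamini and Hochberg. The standard error is the log2 difference over the square root of F. Pair differences used log2 CPM with a prior count of 2. DESeq2 1.42.0 was an alternative. Experiments use replicate numbers of the labels: deviations from the group means correlated at 0.371, 0.516, 0.654 and 0.618 for equal numbers and at -0.454 to 0.221 for unequal ones, so the numbers pair the samples. The fit was also run on simulated data. The outcome of that run is not given here, and no statement rests on it. Intervals cover the spread between samples as estimated over all 14 groups, and 3 counts in a library are worth 0.220 to 0.384 CPM.

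Coordinates and overlaps come from GENCODE M21 and promoters from RefSeq, GRCm38.p6. The text names up to 20 genes with the smallest p among those with one direction in all 4 experiments, list members with an unadjusted p under 0.05 and one direction in all 4, and, for a list with none, its 2 members with the smallest p; the others were chosen after their values were seen. Of the 20 genes with the smallest p, 1 is not reported here. The comparison and all lists were chosen with earlier results of these data known.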

Additional observations from a re-analysis of the deposited data

Results flagged for a closer look

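Within the 4 acceptor libraries of a time, Dixon's ratio at its 95% critical value was used to find single experiments far from the other 3. It flagged 19 of 176 groups of values tested (10.8%). For independent, normally distributed values it flags about 1 in 20. The genes here were chosen from these same data, so the 10.8% cannot be read as an excess over chance. Of the 19, 15 were in experiment 4, 11 at 60 min and 8 at 15 min.

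At 60 min, experiment 4 was the highest for Csrnp1 (47.1 CPM, next 11.0), Socs3 (195 CPM, next 19.0), Irs2 (122 CPM, next 26.7), Bhlhe40 (28.1 CPM, next 9.23), Pfkfb3 (84.8 CPM, next 43.8), Dusp1 (381 CPM, next 215) and Eif2ak3, the ER stress kinase PERK (9.07 CPM, next 6.02). At 60 min it was the lowest for Atg9a (17.8 CPM, next 25.8) and for the lysosomal membrane glycoprotein gene Cd68 (1001 CPM, next 1682). At 15 min, experiment 4 was the highest for Dusp1 (556 CPM, next 319), Nfe2l2 (342 CPM, next 245.2), Nr4a2 (24.7 CPM, next 3.19), Thbs1 (8.96 CPM, next 1.60) and Wasl (29.2 CPM, next 23.0), and the lowest for Dusp7 (36.5 CPM, next 53.7). Dusp1 was thus set apart in experiment 4 at both times.

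Outside experiment 4, the 60 min library of experiment 3 was the highest for Adora2b (4.84 CPM, next 1.76) and Adgre5 (8.64 CPM, next 4.996). The 15 min library of experiment 1 was the lowest for Fem1c (4.32 CPM, next 7.59) and the apoptosis inhibitor gene Mcl1 (396 CPM, next 563). What sets these libraries apart was not tested.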

How the results depend on the processing

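Under all 13 alternatives the comparison of 60 with 15 min gave 0 genes, with the smallest adjusted p between 0.0672 (Thbs1, a fit of only the groups compared) and 1, and the interaction gave 0 genes wherever it was run. Without the replicate block the count stayed at 0, and 153 genes in place of 390 had an unadjusted p under 0.05. In fits of only the groups compared, with the block, 1 gene was called from 15 to 30 min (St3gal5, log2 difference 0.62, adjusted p 0.0466) and 1 from 30 to 60 min (Thbs1, log2 difference 1.92, adjusted p 0.0346), against 0 and 0; these fits hold fewer samples and genes. Without 1 experiment each, the count stayed at 0 and 315 to 445 genes had an unadjusted p under 0.05; the 7 immediate early genes were 3 without experiment 3 and 3 without experiment 4. Log2 differences of 73 of the named genes kept their sign and stayed uncalled in all 947 refits. These genes were chosen from the same values, many for one direction in all experiments. A kept sign was therefore likely in advance and is a description only. Some genes named above, such as Cish and Dusp16, are not among the 73. With 4 experiments, genes under 10 CPM had wider intervals, and for genes not bounded to within 2-fold, at any level, a difference of that size is not excluded.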
